A study of Mus musculus with 8 samples.

Results

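The genes described here fold proteins in the endoplasmic reticulum (ER) or carry the unfolded protein response, and they were measured in mouse aorta after deletion of the gene of serum response factor (SRF) in smooth muscle. They are 31 genes fixed by name, of 18193 genes with a probe set of 1 symbol. Where a gene has several probe sets, the brightest on average across the 8 Affymetrix arrays stands for it, and all 31 passed the filter on dim probe sets, which kept 12173 genes. The 4 mutant arrays came from mice with the labels' genotype SRF-flex2neo -SM22CreERT2ki/+, in which both a floxed Srf gene and a Cre that tamoxifen switches on are present, the latter knocked into 1 allele of SM22 (Tagln), a gene of smooth muscle. The 4 control arrays came from littermates with the genotype SRF-flex2neo, without the Cre. Mice of both groups were 4 months old, received 1 mg of tamoxifen by intraperitoneal injection on 3 days, and tissue was taken 8 days later. Controls thus share the floxed allele and the drug but not the Cre or the changed SM22 allele. The trailing number of each title names 2 sets, each of 2 control and 2 mutant arrays: arrays numbered 1 and 2 in either group belong to set 1, and those numbered 3 and 4 to set 2. The labels name neither the meaning of a set nor the mouse behind an array. The p-values therefore reflect variation among arrays alone, and that variation may be technical.

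Secreted and membrane proteins are folded in the ER by chaperones and by enzymes that form disulfide bonds and modify proline, and smooth muscle makes large amounts of collagen and elastin by this route. When unfolded protein builds up, the sensors Ern1 (IRE1), Eif2ak3 (PERK) and Atf6 act through the transcription factors Xbp1, Atf4 and cleaved Atf6 to raise chaperones, degradation factors and amino acid enzymes. Many chaperone genes carry an ER stress response element (ERSE) in the promoter, which Atf6 and Xbp1 bind together with NF-Y, and many Atf4 targets carry a C/EBP-ATF element.

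RefSeq promoter windows of GRCm38.p6, 250 bases before to 50 after each gene's start, were given for 28 of the 31 genes. They are shown because the exact ERSE, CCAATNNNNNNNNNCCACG on either strand, is rare among promoters: it was found in 39 of 32851 windows (0.119%) and in 8 of the 28. The matches are printed 5′ to 3′ on the strand named, with the fixed ends in capitals.
Hspa5, chr2:34772025-34772043, plus strand: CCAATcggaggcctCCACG
Hsp90b1, chr10:86705533-86705551, plus strand: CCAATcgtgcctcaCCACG
Hsp90b1, chr10:86705638-86705656, minus strand: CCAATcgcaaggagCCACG
Calr, chr8:84847075-84847093, plus strand: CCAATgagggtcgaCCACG
Canx, chr11:50325800-50325818, minus strand: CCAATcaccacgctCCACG
Dnajc3, chr14:118937827-118937845, plus strand: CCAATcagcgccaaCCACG
Pdia6, chr12:17266491-17266509, plus strand: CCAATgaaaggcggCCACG
Creld2, chr15:88819520-88819538, minus strand: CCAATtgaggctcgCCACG
Syvn1, chr19:6046532-6046550, plus strand: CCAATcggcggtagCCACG
The shorter ERSE-II, ATTGGNCCACG, was in 0.0365% of all windows and in 2 of the 28, Herpud1 (ATTGGgCCACG) and Dnajb11 (ATTGGcCCACG). Neither of these windows holds a full ERSE, and the match in Dnajb11 begins 7 bases after the start.

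The C/EBP-ATF element TGATGNAA was in 3.97% of all windows and in 4 of the 28, among them all 3 genes grouped here as Atf4 and Ddit3 targets.
Asns, chr6:7693225-7693232, minus strand: TGATGAAA
Chac1, chr2:119351049-119351056, minus strand: TGATGCAA
Trib3, chr2:152344039-152344046, plus strand: TGATGTAA
Herpud1, chr8:94386317-94386324, minus strand: TGATGCAA
The Xbp1 element TGACGTGG was in 0.676% of all windows and in 0 of the 28. The CArG box, the site that SRF binds, was in 1.63% of all windows and in 1 of the 28, that of Herpud1. These are matches of letters within the window and were not measured as binding.

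The promoter of Hspa5, which encodes the main Hsp70 chaperone of the ER (BiP), shows how an exact match sits near the start. Its 250 bases before the start, chr2:34771840-34772089 on the plus strand, are printed with the ends of the ERSE in capitals; the match begins 65 bases before the start.
Hspa5: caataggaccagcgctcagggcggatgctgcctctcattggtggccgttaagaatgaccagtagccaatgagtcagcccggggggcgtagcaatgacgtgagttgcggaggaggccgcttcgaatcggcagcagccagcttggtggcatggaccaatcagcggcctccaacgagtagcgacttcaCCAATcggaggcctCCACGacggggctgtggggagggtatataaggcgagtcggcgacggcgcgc

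**Figure D1:**
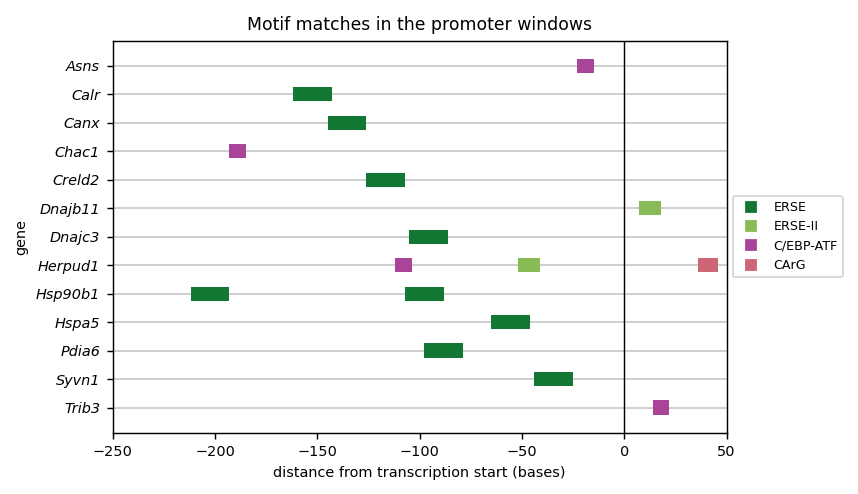
Position of exact motif matches in the promoter windows of the 13 genes that have one. The x axis is the distance in bases from the transcription start (0) and each bar is 1 match on either strand, coloured by motif. All 9 ERSE matches lie before the start, the nearest in Syvn1 (44 bases before it) and the farthest in Hsp90b1 (212 bases before it).

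Srf itself differed by -0.20 (mutant minus control, log2, SE 0.19), and by -0.01 (SE 0.10) without mutant 2. No source used here places its probe set relative to the deleted part, so the value does not check the deletion. The aorta's smooth muscle marker Myh11 was at 14.66 to 14.74 in controls and 14.45 to 14.57 in mutants. Its difference was -0.21 (SE 0.05, adjusted p = 0.384, limma). All 4 mutants were below all 4 controls, as in 1.77% of all genes tested. Mutant 2 stood apart: its correlation with the other 7 arrays over the probe sets tested was 0.926 to 0.952, where each other array reached 0.985 to 0.994 with its nearest array. Mutant 2 also held the highest values of the nerve marker Th (9.92 against 2.15 to 2.20 in the other arrays) and the fat marker Adipoq (13.63 against 9.66 to 11.90). Many of the differences that moved without mutant 2 are given with and without it, but not all. In whole tissue, fewer cells of a type and less RNA per cell cannot be told apart.

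Between genotypes, no ER folding or unfolded protein response gene passed the adjusted threshold. The count was 0 of 31, where 0.00% of the 27021 probe sets tested passed (limma, Benjamini-Hochberg, threshold 0.05). Adjusted p over the 31 genes ran from 0.499 to 0.994. Differences ran from -0.31 (Chac1) to 0.61 (Sdf2l1) on the log2 scale with a median of 0.08, beside -0.02 over all genes tested, and 22 of 31 were above 0. This split was 24 to 7 after quantile normalization and 16 to 15 after each array was centred on its median. Of all genes tested, 44.4% were above 0 with the values as deposited. Median centring put the median of all genes at -0.09 and that of the 31 at 0.01. At an unadjusted p under 0.05, 3 genes were higher in mutants (Sdf2l1, Dnajb9 and Trib3, or 9.68%) and 0 lower, where 5.80% and 4.60% of all genes tested were. No member had all 4 mutants above or all 4 below the 4 controls, where 2.06% and 1.77% of all genes did.

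**Figure D2:**
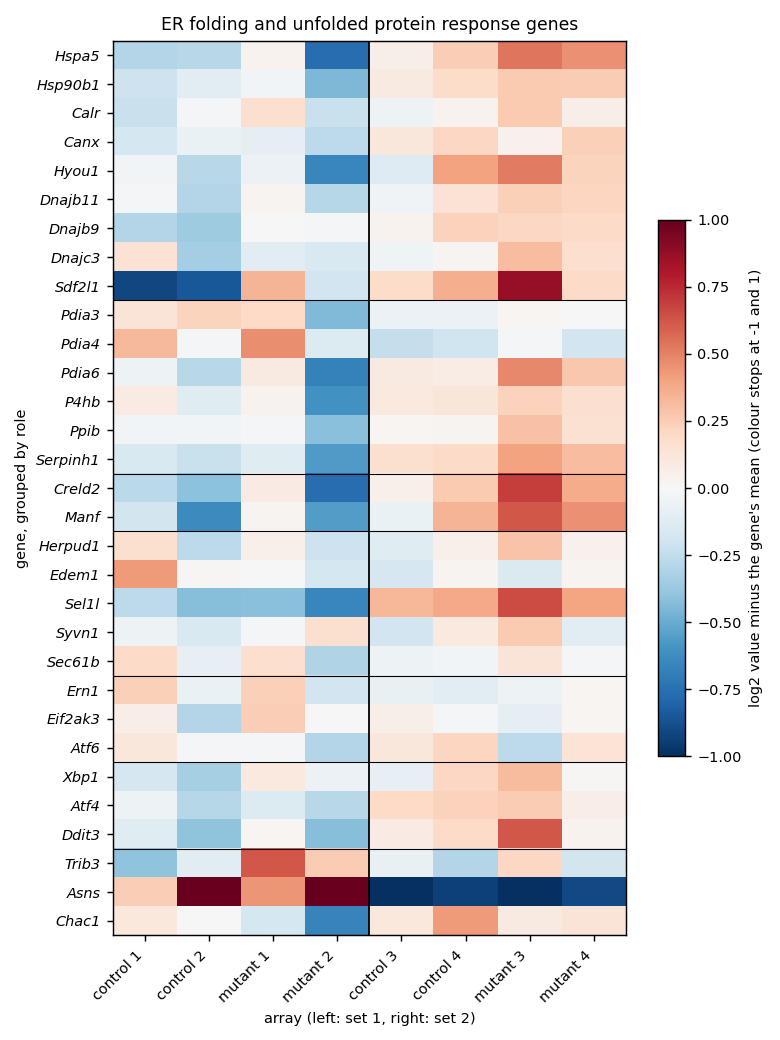
Log2 value of each gene in each array minus the gene's mean over the 8 arrays, on a colour scale that stops at -1 and 1. Rows are the 31 genes grouped by role (lines between roles) and columns are the 8 arrays, set 1 left of the line and set 2 right of it. Mutant 2 is the single lowest array in 17 of the 31 genes and mutant 3 the single highest in 19, and Asns runs the other way between sets.

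The chaperones of the ER lumen were spread by array more than by genotype. Hspa5 was at 13.24 and 13.26 in controls 1 and 2, at 13.57 in mutant 1 and 12.77 in mutant 2, at 13.59 and 13.78 in controls 3 and 4 and at 14.07 and 13.99 in mutants 3 and 4. Mutants 1, 3 and 4 were each above both controls of their set, and mutant 2 was the lowest of the 8 arrays. The group means were 13.47 ± 0.26 in controls and 13.60 ± 0.60 in mutants (SD, n = 4), which gives 0.13 (SE 0.18, 95% confidence interval -0.30 to 0.56, adjusted p = 0.779, limma). Without mutant 2 the difference was 0.34 (SE 0.06, adjusted p = 0.314).

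Hsp90b1, the ER's Hsp90 chaperone (GRP94), was at 12.72 and 12.82 in controls 1 and 2, at 12.90 in mutant 1 and 12.48 in mutant 2, at 13.02 and 13.11 in controls 3 and 4, and at 13.19 and 13.18 in mutants 3 and 4. The order of arrays was that of Hspa5, and the difference was 0.02 (SE 0.10), or 0.12 (SE 0.05) without mutant 2. Calr, the calcium-binding lectin chaperone calreticulin, differed by 0.13 (SE 0.10), and its membrane-bound relative Canx by -0.04 (SE 0.07, 95% confidence interval -0.21 to 0.13). Hyou1, the large Hsp70-like exchange factor of BiP, differed by 0.02 (SE 0.20), or 0.18 (SE 0.16) without mutant 2, with mutant 2 at 7.45 and mutant 3 at 8.62. The BiP co-chaperones Dnajb11 and Dnajc3 differed by 0.10 (SE 0.11) and 0.11 (SE 0.12). None of these passed.

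Dnajb9 and Sdf2l1 were the chaperone genes in which both mutants of set 1 lay above both controls of that set. Dnajb9 (ERdj4), a co-chaperone that directs misfolded proteins to degradation and holds Ern1 inactive, was at 10.31 and 10.25 in controls 1 and 2 and at 10.61 and 10.58 in mutants 1 and 2, then at 10.64 and 10.83 in controls 3 and 4 and 10.81 and 10.79 in mutants 3 and 4. The groups were apart in set 1 and overlapped in set 2, and the difference was 0.19 (SE 0.08, adjusted p = 0.51). Sdf2l1, a partner of Dnajb11, was at 3.70 and 3.76 in controls 1 and 2 and at 4.95 and 4.42 in mutants 1 and 2, and at 4.79, 4.97, 5.48 and 4.80 in controls 3 and 4 and mutants 3 and 4. It differed by 0.61 (SE 0.22, adjusted p = 0.499), 0.96 in set 1 and 0.26 in set 2. Its level was low on this array type, and it was left out by the filter that drops the dimmest 60% of probe sets. Markers of other cells moved with the set 1 difference: over 15 macrophage and leukocyte markers, all higher in mutants with a median of 1.15, set 1 gave a median of 1.94 and set 2 one of 0.38, and their part in the values of Dnajb9 and Sdf2l1 was not tested.

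**Figure D3:**
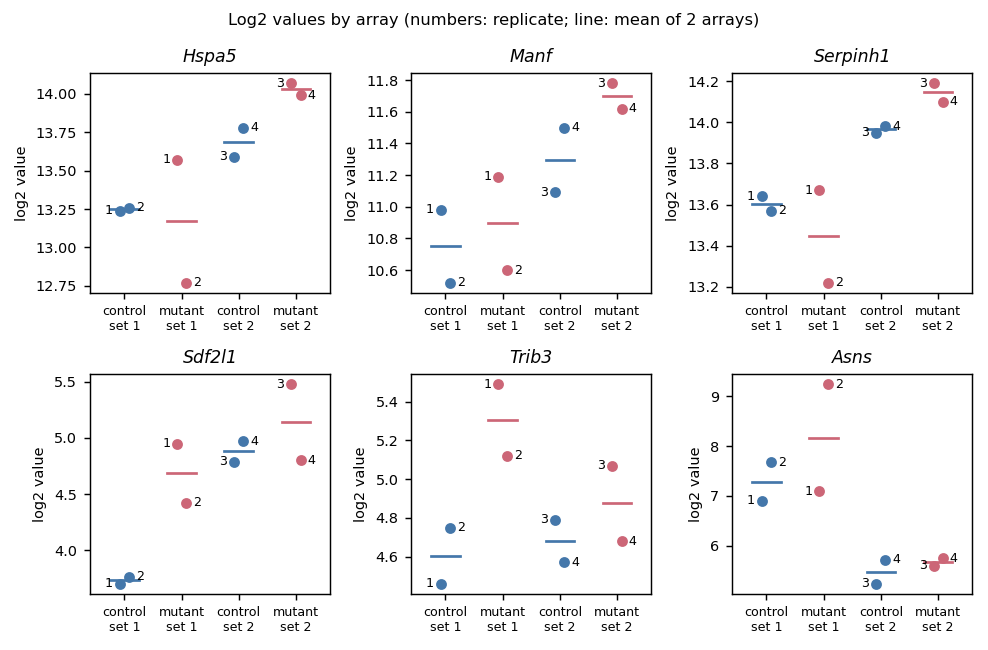
Log2 values of 6 genes in each array, by genotype and set; points carry the replicate number and the line is the mean of 2 arrays. In Hspa5, Manf and Serpinh1 both mutants of set 2 lie above both controls of that set, and mutant 2 lies below mutant 1; Sdf2l1 and Trib3 are apart by genotype in set 1; Asns differs between sets and is highest in mutant 2.

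The 6 enzymes of disulfide bonding, proline isomerization and collagen folding had differences of -0.11 to 0.08 over 8 arrays, with a median of 0.01. Without mutant 2 their median was 0.13, with 6 of 6 above 0 and 2 higher at an unadjusted p under 0.05. Of all genes tested, 48.3% were above 0 without mutant 2 and 5.70% were higher at that p. The median of the 6 was -0.17 in set 1 and 0.15 in set 2. Pdia3, the isomerase that works with calnexin and calreticulin, was at 12.30, 12.39, 12.37 and 11.73 in controls 1 and 2 and mutants 1 and 2, and at 12.11, 12.11, 12.19 and 12.17 in controls 3 and 4 and mutants 3 and 4. The other 7 arrays lay between 12.11 and 12.39, and mutant 2 was below them all. The difference was -0.11 (SE 0.15), and 0.05 (SE 0.04) without mutant 2. P4hb, the protein disulfide isomerase that is also a subunit of collagen prolyl 4-hydroxylase, differed by -0.09 (SE 0.15), and by 0.07 (SE 0.06) without mutant 2. Pdia4 and Pdia6, further isomerases of the ER, differed by 0.06 (SE 0.15) and 0.08 (SE 0.18), or by 0.19 (SE 0.12) and 0.28 (SE 0.08) without mutant 2.

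Ppib, the cyclophilin that isomerizes proline in collagen chains, was at 13.37 ± 0.03 in controls and 13.37 ± 0.31 in mutants (SD, n = 4), and its difference of 0.00 had a 95% confidence interval of -0.27 to 0.28. The collagen chaperone Serpinh1 (HSP47) was at 13.64 and 13.57 in controls 1 and 2, at 13.67 and 13.22 in mutants 1 and 2, at 13.95 and 13.98 in controls 3 and 4 and at 14.19 and 14.10 in mutants 3 and 4. It differed by 0.01 (SE 0.12), with -0.16 in set 1 and 0.18 in set 2. Its dimmer probe set differed by -0.17 (SE 0.13), so the 2 probe sets disagree in sign.

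Creld2 and Manf, small proteins that ER stress induces and that are resident in or released from the ER, were highest in mutant 3 and next in mutant 4. Manf was at 10.98 and 10.52 in controls 1 and 2, 11.19 and 10.60 in mutants 1 and 2, 11.09 and 11.50 in controls 3 and 4, and 11.78 and 11.62 in mutants 3 and 4. Its difference was 0.28 (SE 0.18, adjusted p = 0.612), and 0.42 (SE 0.14) without mutant 2. Creld2 differed by 0.19 (SE 0.20, adjusted p = 0.717), and by 0.39 (SE 0.10, adjusted p = 0.395) without mutant 2. In set 2 the differences were 0.40 and 0.38.

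Of the genes of degradation and translocation, none was apart by genotype in both sets. Herpud1, a membrane protein of the degradation complex, differed by 0.08 (SE 0.13), and Sec61b, a subunit of the translocation channel, by -0.01 (SE 0.12). Edem1, a lectin that takes misfolded glycoproteins to degradation, was at 10.62 and 10.21 in controls 1 and 2 and at 10.20 and 10.02 in mutants 1 and 2, and differed by -0.15 (SE 0.12), or -0.08 (SE 0.12) without mutant 2. Sel1l, the adaptor of the ubiquitin ligase, differed by -0.01 (SE 0.11), and its ligase partner Syvn1 (HRD1) by 0.14 (SE 0.11). Sel1l has 4 dimmer probe sets, which differed by -0.38 to -0.04, and that of Syvn1 differed by -0.02.

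The 3 sensors gave differences of no common sign, and none passed. Atf6 was at 9.10, 8.97, 8.97 and 8.69 in controls 1 and 2 and mutants 1 and 2, and at 9.10, 9.20, 8.72 and 9.12 in controls 3 and 4 and mutants 3 and 4. Its difference was -0.22 (SE 0.11, adjusted p = 0.567), and both dimmer probe sets had the same sign, at -0.35 (SE 0.19) and -0.52 (SE 0.21). The last of these was the only one of 33 dimmer probe sets of these genes at an unadjusted p under 0.05. Eif2ak3 differed by 0.09 (SE 0.12) and Ern1 by 0.00 (SE 0.12, 95% confidence interval -0.28 to 0.28).

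Among the transcription factors, Xbp1, whose messenger RNA Ern1 splices, was at 11.69 and 11.53 in controls 1 and 2, 11.96 and 11.80 in mutants 1 and 2, 11.78 and 12.07 in controls 3 and 4, and 12.18 and 11.87 in mutants 3 and 4. It differed by 0.19 (SE 0.11, adjusted p = 0.585), and its 3 dimmer probe sets by 0.17, 0.12 and 0.15. The probe sets are not known to tell spliced from unspliced Xbp1, so splicing was not measured. Atf4, which is raised mostly through translation, differed by -0.05 (SE 0.08). Ddit3 (CHOP), a factor of the late response, differed by 0.12 (SE 0.16), with mutant 3 highest at 9.64.

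The 3 targets of Atf4 and Ddit3 gave 3 different patterns. Trib3, a pseudokinase that Atf4 and Ddit3 induce, was at 4.46 and 4.75 in controls 1 and 2, 5.49 and 5.12 in mutants 1 and 2, 4.79 and 4.57 in controls 3 and 4, and 5.07 and 4.68 in mutants 3 and 4. It differed by 0.45 (SE 0.17, adjusted p = 0.51), 0.70 in set 1 and 0.20 in set 2. Chac1, which degrades glutathione, differed the other way, by -0.31 (SE 0.15, adjusted p = 0.554), or -0.18 (SE 0.11) without mutant 2, the lowest array at 3.92. Both are dim, and neither passed the stricter filter on dim probe sets.

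Asns, which makes asparagine, was the most variable of the 31 genes. It was at 6.90 and 7.67 in controls 1 and 2, 7.09 in mutant 1 and 9.24 in mutant 2, and at 5.24 and 5.72 in controls 3 and 4 and 5.60 and 5.75 in mutants 3 and 4. All 4 arrays of set 1 were above all 4 of set 2, and mutant 2 was the highest of the 8. The genotype difference of 0.54 (SE 0.47) was 0.04 (SE 0.23) without mutant 2. The other probe set was likewise higher in every array of set 1 than in any of set 2, with 9.14 in mutant 2. Over all members, 22 of 33 dimmer probe sets that passed the filter had the sign of the brighter one. The 11 others belong to Canx, Ddit3, Dnajc3, Ern1, Hspa5, Hyou1, Ppib, Serpinh1 and Syvn1, with differences from -0.30 (Ern1) to 0.19 (Canx). Mutant 2 was also the array in which the summed level of 9 nerve markers was highest (14.51, log2 of the sum, against 9.77 to 10.17 in controls), as was that of 7 fat cell markers (16.66, against 14.14 to 15.05 in controls); their part in the value of Asns was not tested.

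**Figure D4:**
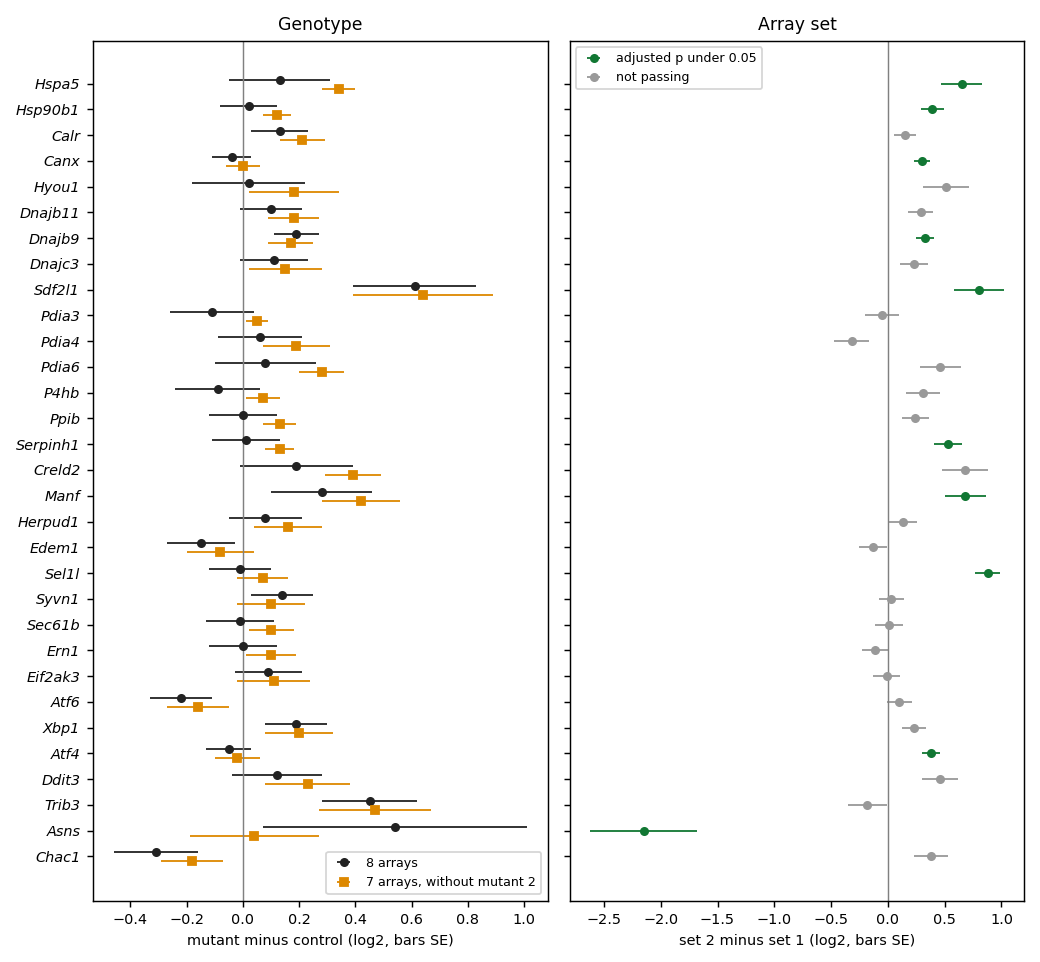
Left, mutant minus control for each of the 31 genes on the log2 scale with SE, from 8 arrays (circles) and from 7 arrays without mutant 2 (squares). Right, set 2 minus set 1 with SE from the same fit, with the 10 genes at an adjusted p under 0.05 in green. Without mutant 2, 26 of 31 genotype differences lie above 0, against 22 with it, and none passes. Of all genes tested, 48.3% lie above 0 without mutant 2 and 44.4% with it.

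The values split by set and by array in a way that the 8-array means do not show. In set 2, both mutants were above both controls in 16 of 31 genes (51.6%) and below them in 0, where 16.6% and 16.3% of all genes tested were. These 16 hold all 6 disulfide, proline and collagen folding enzymes (Pdia3, Pdia4, Pdia6, P4hb, Ppib and Serpinh1), 5 of 9 chaperones (Hspa5, Hsp90b1, Calr, Dnajb11 and Dnajc3), Creld2 and Manf, and Sel1l, Sec61b and Ern1. Some of the 16 were apart by very little. Control 4 and mutant 4 were at 7.05 and 7.06 in Pdia4 and at 10.93 and 10.94 in Sec61b. They were at 10.37 and 10.38 in Sel1l and at 13.73 and 13.75 in Calr. In Ern1, control 3 was at 8.53 and mutant 3 at 8.55. The count was 15 after quantile normalization and 14 after median centring. The share of all genes after these scalings was not counted. In set 1, both mutants were above both controls in 5 genes (Dnajb9, Sdf2l1, Syvn1, Xbp1 and Trib3) and below them in 2 (Edem1 and Chac1), where 18.8% and 24.4% of all genes were. The median difference was -0.04 in set 1 and 0.16 in set 2, beside -0.04 and 0.00 over all genes. The genes of one array are not independent of each other, and with 2 arrays against 2 no test within a set was made of these counts. The interaction of genotype and set, which tests the difference between sets for each gene, gave 0 of 31 genes at an adjusted p under 0.05 (limma) and 0 at an unadjusted p under 0.05, where 5.16% of all genes were at the latter.

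Mutants 1 and 2 went apart within set 1. Mutant 1 was above the mean of its 2 controls in 25 of 31 genes (median 0.12, beside -0.01 over all genes) and mutant 2 was below it in 24 (median -0.28, beside -0.08). Mutant 2 was the single lowest of 8 arrays in 17 genes (54.8%), where it was so in 33.0% of all genes tested, and mutant 3 the single highest in 19 (61.3%), where it was so in 13.4%. Leaving out mutant 2 gave 9 genes higher in mutants at an unadjusted p under 0.05 (29.0%) and 0 lower, where 5.70% and 3.94% of all genes were. These were Hspa5, Hsp90b1, Calr, Sdf2l1, Pdia6, Serpinh1, Creld2, Manf and Trib3, with differences of 0.12 to 0.64, and 0 of 31 passed the adjusted threshold (lowest adjusted p = 0.314, limma). With mutant 1, mutant 3 or control 2 left out in its place, 0 genes were at an unadjusted p under 0.05. Without mutant 1 the median difference over the 31 genes was -0.02, and without mutant 3 it was 0.00 with 16 genes above 0 and 15 below, so the sign of the median rests on both arrays. Without control 2 or control 3 it was 0.04.

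Array set was the one contrast in which these genes passed the adjusted threshold. Of 31, 9 were higher in set 2 (29.0%) and 1 was lower (3.23%), where 8.81% and 7.79% of all genes tested were. The median difference of set 2 minus set 1 was 0.29, beside -0.00 over all genes. Sel1l rose from 9.55 in set 1 to 10.43 in set 2 (means of 4 arrays), a difference of 0.88 (SE 0.11, adjusted p = 0.00291), and its 4 arrays of set 2 (10.32 to 10.64) were above its 4 of set 1 (9.34 to 9.73). The others that were higher were Sdf2l1 (0.80, SE 0.22), Manf (0.68, SE 0.18), Hspa5 (0.65, SE 0.18), Serpinh1 (0.53, SE 0.12), Hsp90b1 (0.39, SE 0.10), Atf4 (0.38, SE 0.08), Dnajb9 (0.33, SE 0.08) and Canx (0.30, SE 0.07). Asns was the gene that was lower, by -2.15 (SE 0.47, adjusted p = 0.0202). A set is a number in the titles, and each holds both genotypes equally.

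The count of 10 depended on single arrays. It was 6 without control 1, 3 without control 2, 4 without control 3 and 2 without control 4. It was 2 without mutant 3 and 4 without mutant 4, and 11 and 12 without mutants 1 and 2. Leaving out an array takes information from every gene, and the share of all genes called is not given beside these counts. Sel1l was in each of these 8 counts. Its 4 dimmer probe sets did not all follow it: 1 was higher in set 2 by 0.64 (SE 0.17, adjusted p = 0.0405), and the other 3 differed by -0.43, -0.10 and -0.04, not passing. With each gene taken as the mean over its probe sets, Sel1l differed by 0.19 (adjusted p = 0.358), Canx by 0.05 and Hsp90b1 by -0.10, and 5 genes passed (Hspa5, Dnajb9, Xbp1, Atf4 and Asns). Both dimmer probe sets of Hspa5 were higher in set 2 and passed, by 0.58 and 0.80, and that of Asns was lower by -2.03 and passed. The one dimmer probe set of Hsp90b1 went the other way (-0.59, adjusted p = 0.061), and that of Serpinh1 differed by 0.36 (adjusted p = 0.0984).

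The genes with an exact ERSE were compared, as a description, with the other genes that have a promoter window. Manf, Hyou1 and Atf6 have no window and are in neither group, and the genes without the ERSE include Herpud1 and Dnajb11, which have an ERSE-II. The 8 with the element had a median genotype difference of 0.12 and the 20 without it of 0.03. The medians were -0.04 and -0.04 in set 1, 0.21 and 0.11 in set 2, and 0.18 and 0.12 without mutant 2. Between sets, 3 of the 8 passed as higher (Hspa5, Hsp90b1 and Canx), and 5 of the 20 (Serpinh1, Dnajb9, Sel1l, Atf4 and Sdf2l1), with 1 lower. The medians of set 2 minus set 1 were 0.34 and 0.23. The 4 genes with a C/EBP-ATF element had genotype differences of 0.54 (Asns), 0.45 (Trib3), 0.08 (Herpud1) and -0.31 (Chac1), which have no common sign. Herpud1, the one gene with a CArG box in the window, differed by 0.08.

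Other genes of the ER and stress pathways did not pass between genotypes either, and 4 of 6 lists had medians below 0. These 4 stayed below 0 after quantile normalization and median centring, where the median of all genes tested was -0.03 and -0.09. The other 2 turned below 0 after median centring (-0.03 and -0.06), though they stayed above the median of all genes. Over 27 other ER chaperones and co-chaperones, 7 were higher and 20 lower, 1 higher at an unadjusted p under 0.05, and the median was -0.07. Of all genes tested, 5.80% were higher and 4.60% lower at that p, and their median was -0.02. The lowest p values belonged to the immunophilin Fkbp2 (0.18, SE 0.08), the calcium-binding protein Rcn2 (-0.33, SE 0.17, or -0.14 without mutant 2), the disulfide reductase Dnajc10 (-0.28, SE 0.17, or -0.11 without mutant 2) and Cnpy2 (0.14, SE 0.09). Without mutant 2 the median of this list was 0.05, so its sign rests on that array. Over 27 genes of disulfide bonding and collagen folding, 8 were higher and 18 lower, 2 of the latter at an unadjusted p under 0.05, with a median of -0.08 (0.03 without mutant 2), led by the sulfhydryl oxidase Qsox1 (-0.67, SE 0.21, or -0.48 without mutant 2) and the ER-anchored factor Creb3l2 (-0.32, SE 0.11), then Ero1b (0.23, SE 0.11) and Pdia5 (0.19, SE 0.10).

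Over 23 genes of ER-associated degradation, 7 were higher and 16 lower with a median of -0.04 (0.01 without mutant 2). At an unadjusted p under 0.05, 2 were higher and 0 lower, where 5.80% and 4.60% of all genes tested were. The lectin Os9 was at 8.34, 8.32, 8.38 and 8.36 in controls 1 to 4 and at 8.59, 8.64, 8.72 and 8.70 in mutants 1 to 4. All 4 mutants were thus above all 4 controls, as in 2.06% of all genes tested. The difference was 0.31 (SE 0.06, adjusted p = 0.375, limma). The mannosidase Man1a was at 7.35 to 8.17 in controls and 8.46 to 9.17 in mutants. It differed by 1.06 (SE 0.24, adjusted p = 0.384), or 0.88 without mutant 2, in arrays where 16 endothelial markers had a median difference of 0.95; the part of such cells in it was not tested. Ufd1 differed by -0.13 (SE 0.07) and Fam8a1 by -0.24 (SE 0.12). Over 28 genes of the translocon and of N-glycosylation, 7 were higher and 21 lower with a median of -0.06 (0.00 without mutant 2), and the lowest p values had Magt1 (0.29, SE 0.09), Spcs2 (0.14, SE 0.07), Spcs1 (-0.20, SE 0.12) and Ddost (-0.30, SE 0.20, or -0.09 without mutant 2).

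Over 35 other genes of the integrated stress response, 19 were higher and 16 lower with a median of 0.04, and 4 were higher and 0 lower at an unadjusted p under 0.05, where 5.80% and 4.60% of all genes tested were. These were Phgdh (0.43, SE 0.12) of serine synthesis, Mthfd2 (0.52, SE 0.16) of mitochondrial folate metabolism, the tryptophan tRNA ligase Wars (0.71, SE 0.21) and the factor Cebpg (0.33, SE 0.12). Wars is also induced by interferon. Over the 17 genes listed as cytosolic heat shock the median was 0.01. Hspa4 (-0.24, SE 0.14), Hspa4l (0.30, SE 0.19), Hspe1 (0.18, SE 0.12) and Hspd1 (0.23, SE 0.16) came first by p. Hspe1 and Hspd1 encode mitochondrial chaperones, though the list counts them as cytosolic. Over all genes 0 of each list passed the adjusted threshold.

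**Figure D5:**
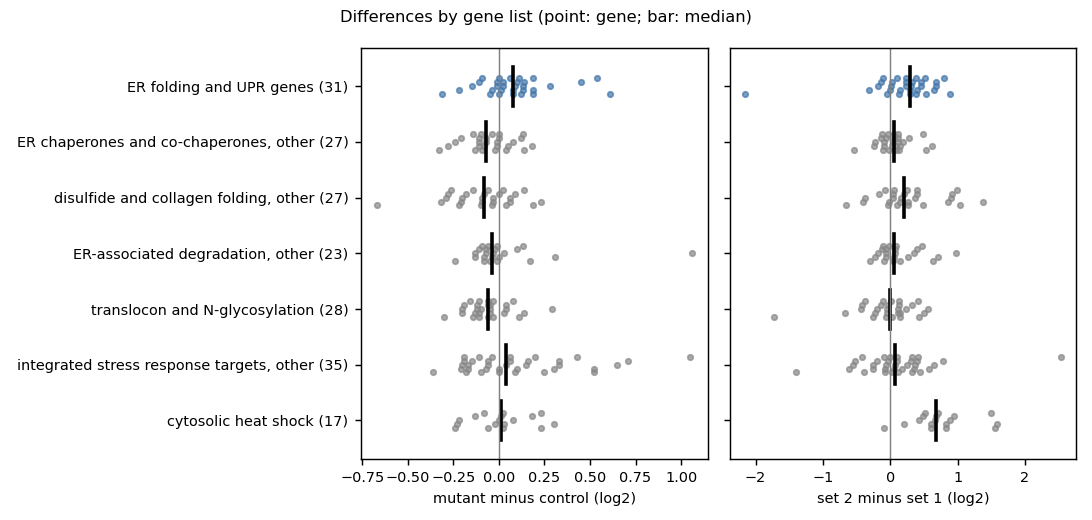
Differences of the 31 genes and of 6 other gene lists on the log2 scale, mutant minus control (left) and set 2 minus set 1 (right); points are genes, bars are medians and the number of genes is in brackets. The genotype medians lie between -0.08 and 0.08, and the cytosolic heat shock list has the highest median between sets, 0.68.

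Between sets, 12 of the 17 genes in the cytosolic heat shock list were higher in set 2 at an adjusted p under 0.05 and 0 lower, with a median of 0.68. Hsph1, an Hsp110 chaperone, was at 10.87 to 11.21 in set 1 and 12.22 to 12.90 in set 2, a difference of 1.59 (SE 0.19), and Hspa8 differed by 0.68 (SE 0.10); both were named after their values were seen. The other lists had 4 higher and 0 lower of 27 other chaperones, 7 and 1 of 27 disulfide and collagen folding genes, 6 and 1 of 23 degradation genes, 4 and 3 of 28 translocon and glycosylation genes, and 6 and 2 of 35 stress response genes. Of all genes tested, 8.81% were called higher and 7.79% lower. Mthfd2, like Asns a target of Atf4, was higher in set 2 by 2.53 (SE 0.16, adjusted p = 0.000368), in the direction opposite to Asns.

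Markers of smooth muscle and of other cells differed between the groups in these arrays, and 0 of them passed the adjusted threshold. Over 12 smooth muscle markers, 12 were lower with a median of -0.28, and the summed level was 17.55 to 17.62 in controls and 17.24 to 17.40 in mutants. They include Tagln, whose locus carries the Cre in mutants only. Fewer smooth muscle cells and less RNA of these genes per cell cannot be told apart, and the part of the SRF deletion itself was not tested. Endothelial markers had summed levels of 12.20 to 13.20 in controls and 12.83 to 14.39 in mutants with 15 of 16 higher, and adventitial fibroblast markers 14.93 to 15.76 and 15.64 to 15.92 with 12 of 13 higher. Fat cell markers had a median difference of 2.75 in set 1 and -0.39 in set 2, and nerve markers of 3.50 and -0.01. Plasma cells, which hold much ER, were represented by 4 of 10 measured markers above the filter, and these did not move together. Jchain was at 10.02 in mutant 1, 7.66 in mutant 2 and 2.67 to 6.12 in the other arrays. Ighm was high in mutant 1 alone (13.10, with mutant 2 at 6.75), and Irf4 in mutant 2 alone (5.43, with mutant 1 at 3.00). Sdc1 differed by 0.03 (SE 0.13). No marker is listed at 0, since the lowest value in the table is 0.90. The part of these cells in the values of the ER genes was not tested.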

How the data were processed

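Total RNA of aorta, 2 ug per array, was hybridized to Affymetrix mouse arrays, per the labels' protocols. The authors deposited log2 values per probe set (0.90 to 15.82). Their range is why they were taken as log2; GCOS is named in the submitters' processing notes, and no source used here names the normalization. Of 45037 probe sets, 34945 have 1 symbol in the platform annotation, 932 several and 9160 none; no gene was named from those with several.

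The deposited values were not rescaled. Probe sets in the dimmest 40% by mean were dropped (27021 kept). limma 3.58.1 in R 4.3.3 was fitted with genotype and set as terms and a mean-variance trend, two-sided, with Benjamini-Hochberg adjustment over all probe sets tested; SE is its moderated standard error. Differences are mutant minus control, where 1 is a 2-fold change. The number of arrays limits the precision. Marker levels are log2 of the sum of linear values. The procedure was checked on simulated data.

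All 31 genes are named, with up to 4 genes of smallest p from each other list and any dimmer probe set of opposite sign or at an unadjusted p under 0.05; others were named after their values were seen. The members and lists were chosen with earlier results of these data known. Replicates are numbered in accession order and equal numbers pair nothing. No 2 arrays shared over 24.7% of values. Alternatives were other filters, scalings, variance models, array weights, no set term, single sets, single arrays left out and the mean over probe sets. Promoter sequences are RefSeq's, and motifs were searched with Python 3.11.15.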

Additional observations from a re-analysis of the deposited data

Results flagged for a closer look

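Of 62 groups of 4 arrays (31 genes in 2 genotypes), 2 held an array far from the other 3 by Dixon's criterion, where chance alone marks about 1 in 20. P4hb was at 12.41 in control 2, against 12.61 in the nearest control. Ern1 was at 8.84 in control 1, against 8.54 in the nearest control. For 0 of the 31 genes did the mutant minus control difference itself differ between the sets, by the interaction at an adjusted p under 0.05 (limma) or by all arrays of each set going opposite ways.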

How the results depend on the processing

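No member passed the adjusted threshold between genotypes in any of the 19 alternatives. The 3 genes at an unadjusted p under 0.05 became 0 with the stricter filter, 1 with median centring, 1 without the set term, 8 with array weights and 5 in set 2 alone, and 0 to 9 with single arrays left out. The median difference ran from -0.02 to 0.13 with single arrays left out, and was 0.02 with the mean over probe sets and 0.01 with median centring, where the median of all genes was -0.09. The 10 genes called between sets became 6 with no filter and 5 with the mean over probe sets, and 2 to 12 with single arrays left out. The shares of all genes are not given here beside these counts. Between 0 and 10 of the 31 genes changed sign in an alternative, 10 of them in set 1 alone; none had passed the threshold, and the cause was not tested. Array weights, which gave mutant 2 a weight of 0.155, put 27 of 31 genes above 0. No paired analysis was possible because the numbers in the titles mark sets of 4 arrays and number no single replicates across the groups; set was a term of the fit. The arrays limit what could be seen: the median SE over the 31 genes was 0.12.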

Other observations

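Mthfd2 and Asns, both targets of Atf4, differed between the sets in opposite directions and Mthfd2 by more (2.53) than Asns (-2.15), the most different of the 31 genes. Mthfd2 was at 6.66 to 7.52 in set 1 and 9.21 to 10.05 in set 2, and Asns at 6.90 to 9.24 and 5.24 to 5.75. Of 27 other genes of disulfide bonding and collagen folding, 7 were called higher and 1 lower in set 2. The 7 include Mia3 (1.03), which exports procollagen from the ER, and P4ha1 (1.38), the catalytic subunit of collagen prolyl 4-hydroxylase. Of the degradation genes, Ubxn4 (0.97) and Vcp (0.35), the ATPase that extracts proteins from the ER, were higher in set 2 as well. These genes passed an adjusted p of 0.05 between sets and were named after their values were seen.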
